A study of Mus musculus with 33 samples.

Results

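The Pax genes encode 9 transcription factors in the mouse, Pax1 to Pax9, and all 9 were found by symbol among 22367 protein-coding genes of the mm9 annotation (GENCODE vM1). The data were lists from ChIP-seq, which pulls down chromatin with an antibody to a histone mark or a factor and sequences the attached DNA. The cells were E14 mouse embryonic stem cells (mESC), undifferentiated, and embryoid bodies (EBs), the aggregates they form when they differentiate, at week 1, 2 and 3. Each stage was profiled in wild type (WT) and in Uhrf1 KO cells, which lack the chromatin protein Uhrf1. H3K4me3 and H3K27me3 were mapped at all 4 stages, H3K9me3 and the factors Oct4, Sox2 and Nanog in mESC of both genotypes, and Uhrf1 in WT mESC. WT and Uhrf1 KO cells came from another laboratory, a line of each was used, and EBs were started as hanging drops. Of 33 samples, 25 had a list and the other 8 were inputs.

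Each group held 1 library, so no difference has a replicate check and no p-value is given. A gene was counted as carrying H3K4me3 when a domain, a continuous stretch called enriched over input, lay within 2 kb of its start, and as carrying H3K27me3 or H3K9me3 when a domain lay within 5 kb. Promoters with H3K4me3 and H3K27me3 are called bivalent, those with H3K4me3 alone active, those with H3K27me3 alone repressive and those with neither unmarked. A list of domains cannot tell fewer marked cells from a weaker mark in each cell, nor both marks on the same chromosomes from each mark in different cells.

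Pax proteins bind DNA through the paired domain and pattern the early embryo, from neural tube and somites to kidney, eye and pancreas. They fall into 4 subgroups by their other domains: Pax1 and Pax9 have no homeodomain, Pax2, Pax5 and Pax8 keep a part of it, and Pax3 and Pax7 as well as Pax4 and Pax6 have a whole one. Most are silent in embryonic stem cells and lie in CpG-rich DNA bound by Polycomb proteins, which place H3K27me3. H3K4me3 marks promoters that are active or poised, H3K9me3 marks heterochromatin, and Oct4, Sox2 and Nanog hold the pluripotent state.

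Regions around the Pax gene starts were compared with those of other genes in CpG, the dinucleotide that carries DNA methylation. Within 2 kb either side of the start the 9 genes held a median of 151 CG dinucleotides, against 85 over all coding genes. Pax2 held the most, 205, a number that 4.34% of all genes reached, and Pax4 the fewest, 39, which 77.5% of all genes reached. From 250 bases before to 50 bases after the start the difference was small, with a median of 14 against 11, and Pax5 with 8, Pax8 with 7 and Pax4 with 2 were below the median of all genes. The 250 bases before the starts of Pax2, Pax9 and Pax4 are shown because these genes had the most different histories: H3K4me3 in WT but in no Uhrf1 KO library, H3K4me3 in every library, and H3K4me3 in none. Sequences are of mm9, on the strand of the gene, with CG in capitals. Pax2 lay on the plus strand at chr19:44830289-44830538, Pax9 on the plus strand at chr12:57792504-57792753 and Pax4 on the minus strand at chr6:28399354-28399603.
Pax2: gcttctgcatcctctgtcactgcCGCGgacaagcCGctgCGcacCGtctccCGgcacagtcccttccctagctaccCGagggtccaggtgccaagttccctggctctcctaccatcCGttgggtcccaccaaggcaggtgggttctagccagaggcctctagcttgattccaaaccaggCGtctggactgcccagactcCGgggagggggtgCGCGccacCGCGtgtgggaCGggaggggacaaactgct
Pax9: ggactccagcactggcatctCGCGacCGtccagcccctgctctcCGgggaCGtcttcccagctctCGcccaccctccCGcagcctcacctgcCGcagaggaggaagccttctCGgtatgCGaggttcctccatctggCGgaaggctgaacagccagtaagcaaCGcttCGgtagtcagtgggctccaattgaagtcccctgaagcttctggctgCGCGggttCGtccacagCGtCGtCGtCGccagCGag
Pax4: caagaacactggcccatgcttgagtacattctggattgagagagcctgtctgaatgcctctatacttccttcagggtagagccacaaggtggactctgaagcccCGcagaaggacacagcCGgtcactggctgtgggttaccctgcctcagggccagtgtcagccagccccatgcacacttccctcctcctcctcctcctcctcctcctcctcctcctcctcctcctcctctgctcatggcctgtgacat
These stretches held 15 CG in Pax2, 21 in Pax9 and 2 in Pax4.

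The lists differed in size, and 2 of the Uhrf1 KO lists stood apart. The Uhrf1 KO mESC H3K27me3 list held 722 domains, against 3722 to 9488 in the other H3K27me3 lists, and its domains had a median mean read count of 0.914 per bin, down to 0. The Uhrf1 KO Oct4 list held 576 summits against 12898 in WT. H3K4me3 lists held 11509 to 39898 domains, and read totals were not used here. The H3K4me3 bins were 1300 bp in mESC and 350 or 400 bp in EBs. Median H3K4me3 domain lengths were 9.1 kb in WT and 10.4 kb in Uhrf1 KO mESC, but 2.8 to 4.8 kb in EBs. H3K4me3 lengths in mESC and EBs below therefore differ in the lists as well as at the genes. Among 7 genes known as stem cell markers, 6 carried H3K4me3 in WT and in Uhrf1 KO mESC. Among 8 markers of differentiated EB cells, 6 carried it in WT mESC, 4 in Uhrf1 KO mESC and 8 in WT EB week 1. The Uhrf1 gene itself carried H3K4me3 in all 8 H3K4me3 lists, so these lists do not check the knockout.

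In WT mESC all 9 Pax genes carried H3K27me3 and 7 also carried H3K4me3, which left only Pax1 and Pax4 without it. In Uhrf1 KO mESC H3K4me3 was found at 2 of the 9, Pax9 and Pax8, and at EB week 1 at 1, Pax9, against 7 in WT at both stages. Over all coding genes H3K4me3 stood at 63.2% of starts in WT mESC and 57.0% in Uhrf1 KO, and at 62.1% and 57.0% at week 1. At week 2 both genotypes had 6 marked Pax genes, where all genes gave 65.7% in WT and 64.5% in Uhrf1 KO. At week 3 WT had 8 and Uhrf1 KO 7, against 66.2% and 65.8% of all genes. The family differed most between genotypes in mESC and at week 1, stages at which the share over all genes was lower in Uhrf1 KO as well, though by less. The WT domains behind these counts were weak for their lists. Their mean counts were 6.41 to 13.1 reads per bin in mESC, where the list's median was 13.5. At week 1 they were 5.41 to 10.4, where the list's median was 13. How many genes with equally weak WT domains lacked the mark in Uhrf1 KO was not tested.

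H3K27me3 was the mark the family carried most steadily. At week 1 it stood at 8 Pax genes in both genotypes, against 20.5% of all genes in WT and 21.1% in Uhrf1 KO. Week 2 had 8 in WT and 9 in Uhrf1 KO, beside 29.8% and 24.1% of all genes, and week 3 had 9 in each, beside 33.2% and 19.5%. In mESC the WT count of 9 stood beside 34.9% of all genes, and the Uhrf1 KO count of 5, at Pax1, Pax9, Pax2, Pax5 and Pax3, beside 7.57%. Those 5 domains had mean counts of 0.143 to 2.17 reads per bin, under the lowest of any WT mESC domain, 3.04, although the bins were 1500 bp in Uhrf1 KO and 1800 bp in WT. When Uhrf1 KO domains below that WT minimum were dropped, none of the 9 was left with H3K27me3 in Uhrf1 KO mESC. The median of the whole Uhrf1 KO list, 0.914, was below that minimum too, and the share over all genes after this filter is not given.

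**Figure D1:**
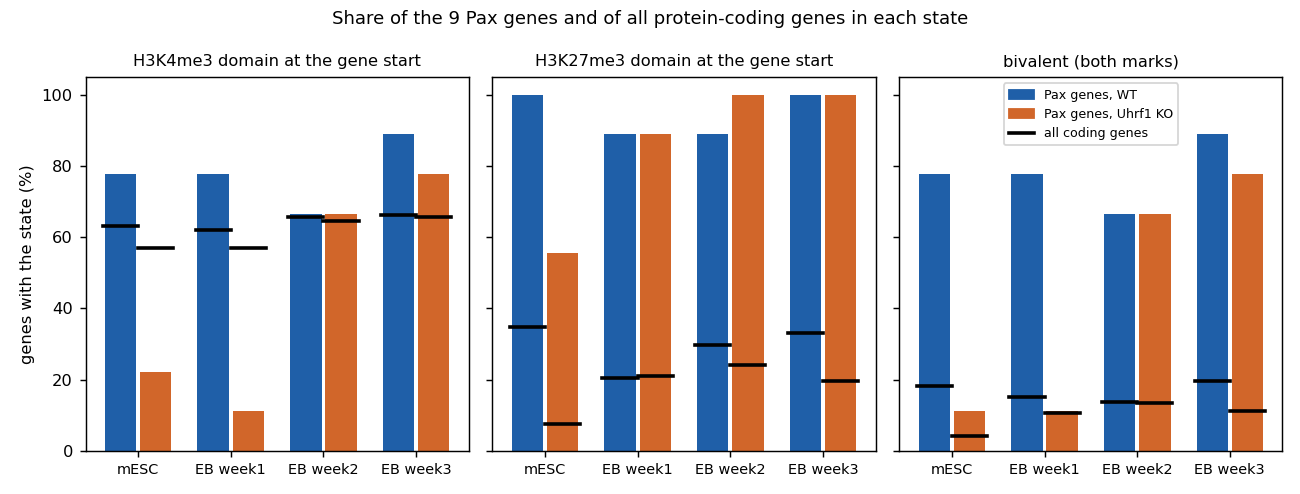
Percentage of the 9 Pax genes (bars, blue WT and orange Uhrf1 KO) and of all 22367 protein-coding genes (black lines) with an H3K4me3 domain within 2 kb, an H3K27me3 domain within 5 kb, or both, by stage, with 1 library per bar. H3K4me3 bars of Uhrf1 KO mESC (2 of 9 genes) and EB week 1 (1 of 9) lie under the line for all genes, while every H3K27me3 bar lies above its line.

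Bivalent Pax promoters numbered 7 in WT mESC and 1 in Uhrf1 KO, where 18.3% and 4.29% of all genes were bivalent. The counts at week 1 were again 7 and 1, beside 15.2% and 10.7% of all genes. At week 2 they were 6 and 6, beside 13.7% and 13.4%, and at week 3 8 and 7, beside 19.6% and 11.3%. Of the Pax promoters bivalent in WT, 6 of 7 were no longer bivalent in Uhrf1 KO mESC, where 85.4% of all WT bivalent promoters were not. The same held for 6 of 7 at week 1 (all genes 49.1%), 1 of 6 at week 2 (45.5%) and 1 of 8 at week 3 (53.3%). The mESC share was near that of all genes and the week 1 share above it. At weeks 2 and 3 the share was below that of all genes, but the count depended on the setting. With domains at or above the median score, 3 of 5 were not bivalent at week 2 and 0 of 4 at week 3. With the count minimum for Uhrf1 KO H3K27me3 of that stage, 5 of 8 were not at week 3. With any transcript start, or a domain covering the start, the count stayed at 1 at both weeks. Shares over all genes under these settings are not given, so the direction against all genes is not known there.

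Among these promoters of Uhrf1 KO mESC, Pax2, Pax5 and Pax3 lacked H3K4me3 only, Pax8 lacked H3K27me3 only, and Pax7 and Pax6 lacked both marks. At week 1 Pax1, Pax2, Pax5, Pax8, Pax3 and Pax6 all lacked H3K4me3 and kept H3K27me3. H3K4me3 was absent in Uhrf1 KO mESC at 5 of the 7 bivalent Pax promoters, against 24.9% of all WT bivalent promoters, and at week 1 at 6 of 7, against 25.0%. At week 2 this was so at 1 of 6, against 10.2%, and at week 3 at 1 of 8, against 6.45%, the gene being Pax2 both times. At week 1 the stem cell markers differed too: 5 of 7 carried H3K4me3 in WT and 2 in Uhrf1 KO, while of the 8 EB markers 8 carried it in WT and 7 in Uhrf1 KO. The part of differentiation state in the week 1 difference was not tested.

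**Figure D2:**
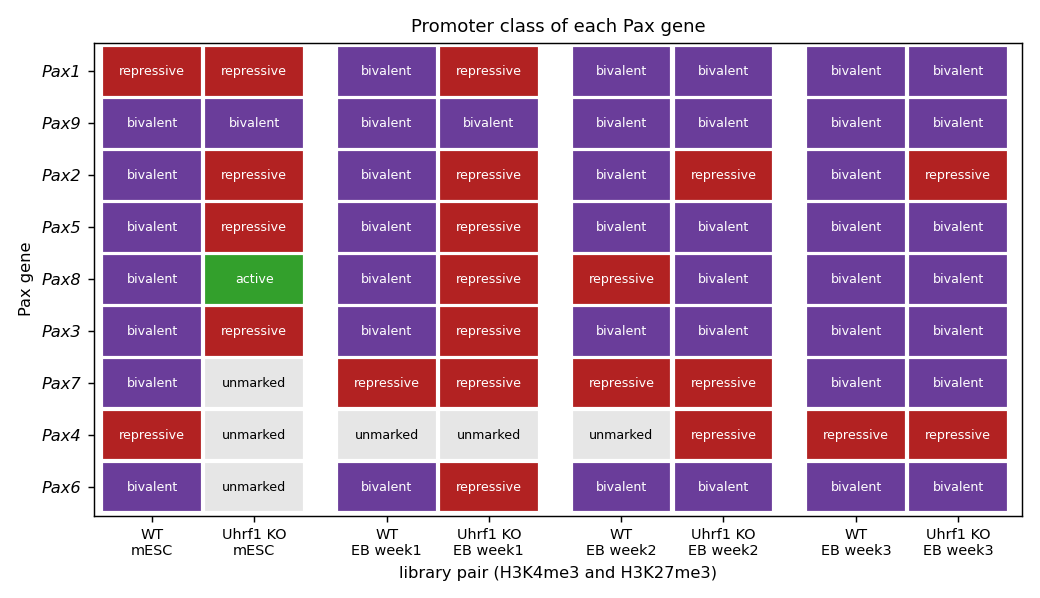
Promoter class of each Pax gene (rows) in WT and Uhrf1 KO cells at each stage (columns), from 1 H3K4me3 and 1 H3K27me3 library per column. Pax9 was bivalent in all 8 columns, and Pax2 was bivalent in the 4 WT and repressive in the 4 Uhrf1 KO columns. Every H3K27me3 call of Uhrf1 KO mESC rests on a domain under the lowest WT mESC mean count.

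Pax1 and Pax9 form the subgroup without a homeodomain. Pax9, needed for teeth, palate and pharyngeal pouches (chr12:57792754-57813809, plus strand), was the only member bivalent in all 8 pairs of libraries, a set of classes it shared with 152 other genes. Its H3K27me3 domain in Uhrf1 KO mESC had a mean count of 0.23 reads per bin, under the lowest of any WT mESC domain. With that minimum applied it was not bivalent there. Its H3K4me3 domain covered the start every time. In WT it was 18.2 kb long in mESC, 12 kb at week 1, 20 kb at week 2 and 14 kb at week 3, and in Uhrf1 KO 13 kb, 10.2 kb, 9.8 kb and 12.8 kb. At each stage the Uhrf1 KO domain was the shorter, with the widest gap at week 2.

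Pax1, which acts in the sclerotome that forms the vertebrae (chr2:147187661-147219031, plus strand), started from a different state. It carried H3K27me3 in all 8 lists, though in Uhrf1 KO mESC with a mean count of only 0.516 reads per bin. In mESC its nearest H3K4me3 domain lay 68 kb from the start in WT and 167 kb in Uhrf1 KO. In WT a domain over the start was present at week 1 (8.8 kb), week 2 (16.4 kb) and week 3 (2.4 kb). In Uhrf1 KO it was absent at week 1, with the nearest 183 kb away, and was 1.05 kb long at week 2 and 10.4 kb at week 3. The Uhrf1 KO domain of week 2 and the WT domain of week 3 scored below the median of their lists, so under a stricter score the mark was in WT alone at weeks 1 and 2 and in Uhrf1 KO alone at week 3.

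In the second subgroup Pax2, a regulator of kidney, optic nerve and the midbrain-hindbrain boundary (chr19:44830539-44912758, plus strand), was the only Pax gene whose class differed between genotypes at all 4 stages. Its WT H3K4me3 domain in mESC reached from -39.04 to -1.34 kb of the start, upstream and without covering it, and was 37.7 kb long with a mean count of 7.93 reads per bin. The WT domains in EBs were 1.6 kb, 1.2 kb and 3.2 kb long for weeks 1, 2 and 3. The medians of those lists were 4.8 kb, 2.8 kb and 3.8 kb, against 9.1 kb in WT mESC. In Uhrf1 KO the nearest domain lay 23.4 kb away in mESC and 171 kb, 29.1 kb and 29.3 kb away at weeks 1 to 3. H3K27me3 covered the start in all 8 lists, though in Uhrf1 KO mESC with a mean count of only 2.17 reads per bin. Only 1 other coding gene had the same classes throughout. All 3 WT EB domains scored below the median of their list, so with a stricter score Pax2 would carry H3K4me3 in WT mESC alone.

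Pax5, the B cell commitment factor (chr4:44544017-44724318, minus strand), had an 18.2 kb H3K4me3 domain over its start in WT mESC and none within 42.5 kb in Uhrf1 KO. At week 1 WT had 3.2 kb, ending 0.88 kb upstream of the start, and Uhrf1 KO had nothing within 42.4 kb. By week 2 both genotypes had a domain, of 4 kb in WT and 1.4 kb in Uhrf1 KO, and at week 3 the lengths were 6 kb and 4 kb. The week 1 domain in WT and the week 2 domain in Uhrf1 KO scored below the median of their lists and did not cover the start, so under either stricter rule Pax5 differed between genotypes at week 2 and not at week 1.

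Pax8, which drives thyroid follicular cells (chr2:24276071-24331119, minus strand), had H3K4me3 in WT alone at week 1 and in Uhrf1 KO alone at week 2. In mESC its domain was 5.2 kb long over the start in WT and 6.5 kb long in Uhrf1 KO, where it began 1.62 kb inside the gene, and it was the only Pax promoter called active anywhere, since Uhrf1 KO mESC had no H3K27me3 within 797 kb. At week 1 only WT had a domain, of 2 kb, at week 2 only Uhrf1 KO had one, of 1.4 kb, and at week 3 both did, of 2 kb and 3.6 kb. In mESC both domains, and at week 1 and week 2 each lone domain, scored below the median of their list.

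**Figure D3:**
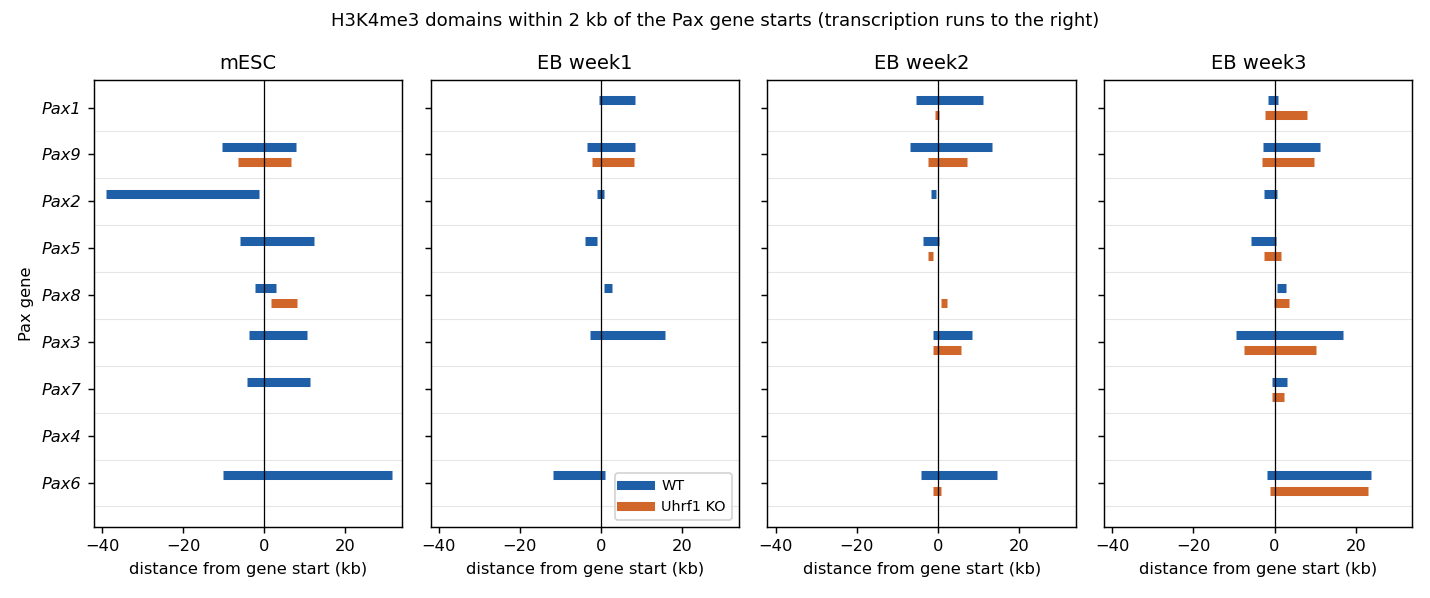
Extent of each H3K4me3 domain within 2 kb of a Pax gene start, in kb from the start with transcription to the right, for WT (blue) and Uhrf1 KO (orange), 1 library each. Blue bars without an orange partner are seen at 5 genes in mESC and at 6 at week 1, and the Pax2 bar of WT mESC lies wholly upstream of the start.

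Pax3 and Pax7 work in neural crest and muscle precursors. Pax3 (chr1:78097842-78193709, minus strand) had WT H3K4me3 domains over its start of 14.3 kb in mESC, 18.4 kb at week 1, 9.6 kb at week 2 and 26.4 kb at week 3. In Uhrf1 KO the nearest domain lay 13 kb away in mESC and 6.44 kb away at week 1, and the start was covered by 7 kb at week 2 and 17.6 kb at week 3. Pax3 had the same class as Pax5 in all 8 pairs of libraries, although they belong to different subgroups, a set of classes that each shared with 30 other coding genes. Over the 6 pairs within subgroups the median was 4.5 of 8 classes the same, with a range of 1 to 6. Over the other 30 pairs it was 5 of 8, with a range of 0 to 8. By these medians subgroup members were no more alike in class, but the pairs are few, share genes and were not tested. The lowest pair within a subgroup, with 1 of 8, was Pax4 and Pax6.

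Pax7, the satellite cell factor (chr4:139292977-139389445, minus strand), carried a 15.6 kb H3K4me3 domain over its start in WT mESC and none within 208 kb in Uhrf1 KO. It had none in either genotype at week 1 or week 2, with the nearest WT domain 117 kb and 40.2 kb away. At week 3 domains of 3.6 kb in WT and 2.8 kb in Uhrf1 KO both began at -0.56 kb, upstream of the start, and both scored below the median of their list. In Uhrf1 KO mESC the promoter was unmarked, as the nearest H3K27me3 domain lay 1541 kb away, whereas the WT domain there was 63 kb long.

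Pax6, a regulator of eye, forebrain and islet development (chr2:105509053-105543317, plus strand), had the longest H3K4me3 domain of the family in WT mESC, 41.6 kb from -10.15 to 31.45 kb of the start. At weeks 1, 2 and 3 the WT domains were 12.8 kb, 18.8 kb and 25.6 kb long. In Uhrf1 KO no domain lay within 2 kb in mESC or at week 1, but the nearest were only 4.15 kb and 4.4 kb away, inside the gene. The start was covered by 2.1 kb at week 2, with a score below the list's median, and by 24 kb at week 3. Pax6 has 29 annotated transcript starts, and when any of these was accepted, it carried H3K4me3 in Uhrf1 KO mESC and at week 1 as well. In mESC the WT domain also ran past the place where the nearest Uhrf1 KO domain began, so the genotypes differed in the mark around the start. At week 1 the WT domain over the start ended at 0.95 kb, before the nearest Uhrf1 KO domain.

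Pax4, which specifies pancreatic beta cells (chr6:28392334-28399353, minus strand), was the exception to the family's pattern. No H3K4me3 domain lay nearer than 23.8 kb to its start in any library, and its H3K27me3 came and went: 34.2 kb in WT mESC, none at week 1 in either genotype, 36 kb in Uhrf1 KO alone at week 2, and 21.6 kb in both genotypes at week 3. All 4 of these domains scored below the median of their list.

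H3K27me3 domains over Pax genes were long and often took in neighbouring genes. In WT mESC they ran from 34.2 kb at Pax4 to 1607 kb at Pax1, with a median of 299 kb, and 8 of 9 exceeded the 61.2 kb median of that list. That median is over all domains, while a domain that touches a given window is more often a long one. Lengths at the starts of other genes were not compared. The Pax1 domain held 6 coding genes, among them Foxa2, Nkx2-2 and Nkx2-4, and the 581 kb Pax9 domain held Nkx2-1 and Nkx2-9, all homeobox or forkhead regulators of endoderm or ventral neural tube. Around Pax6 a domain of 299 kb overlapped Elp4 as well.

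At week 1 most domains were shorter, from 31.5 to 315 kb in WT with a median of 59.5 kb. In Uhrf1 KO they ran from 43.2 to 349 kb with a median of 114 kb. The WT Pax7 domain was longer than in mESC, 126 against 63 kb, and the WT Pax2 domain nearly as long, 315 against 324 kb. Both week 1 lists had short domains, with medians of 8.75 and 16.2 kb. All 8 Pax domains were above these, which again are medians over all domains and not over those at gene starts. Of the 8 genes marked at week 1, Uhrf1 KO had the longer domain at 7, the exception being Pax6 with 59.4 kb against 66.5 kb. Since the lists' own medians differ in the same direction, these lengths describe the lists as well as the genes.

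At week 2 the WT domains had a median of 477 kb and the Uhrf1 KO domains 369 kb, and at week 3 the medians were 301 and 302 kb. The largest gap at week 3 was at Pax1, with 1615 kb in WT and 335 kb in Uhrf1 KO. Mean counts at week 3 were 8.93 to 15.9 reads per bin in WT and 4.31 to 7.35 in Uhrf1 KO, ranges that do not overlap. Whether these counts were scaled to depth is not stated, and the medians of the lists, 8.59 and 5.14, differ in the same direction. When Uhrf1 KO domains below the lowest WT mean count of week 3 were dropped, 4 Pax genes were left with H3K27me3 in place of 9. That minimum, 6.34, lay above the median of the whole Uhrf1 KO list, and the share over all genes after this filter is not given.

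**Figure D4:**
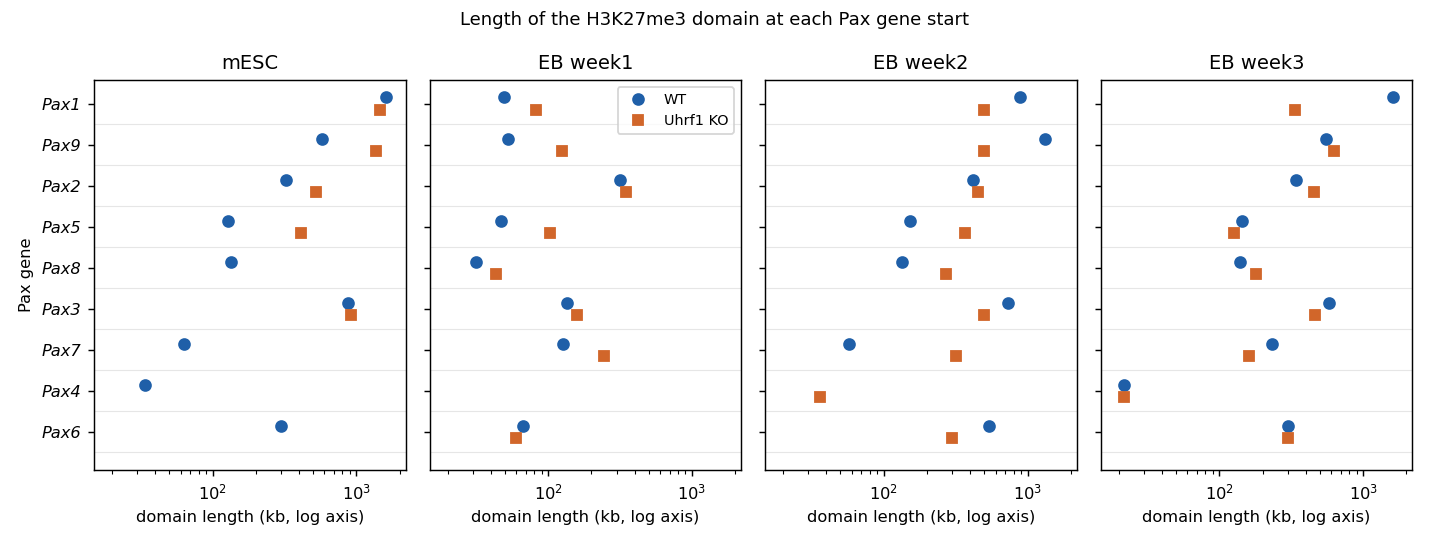
Length of the H3K27me3 domain within 5 kb of each Pax gene start, in kb on a log axis, for WT (blue circles) and Uhrf1 KO (orange squares) at 4 stages, 1 library each. Lengths at week 1 stay at or under 349 kb, while Pax1 reaches 1607 kb in WT mESC and 1615 kb in WT week 3.

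H3K9me3, mapped in mESC alone, was found at 4 Pax genes in WT, where 29.7% of all genes had it, and at 2 in Uhrf1 KO, where 40.1% did. The WT domains were 144 kb at Pax1, 37.8 kb at Pax9, 86.4 kb at Pax3 and 23.4 kb at Pax4. In Uhrf1 KO they were 66.6 kb at Pax1 and 328 kb at Pax6, which in WT had none within 51.9 kb. The lists differ in length too, with 11285 domains of median 37.8 kb in WT and 3118 of median 140 kb in Uhrf1 KO. Pax1 alone carried the mark in both genotypes. The Pax1 domain of Uhrf1 KO and the Pax4 domain of WT scored below the median of their lists, so with a stricter score no gene carried it in both. With any transcript start Pax8 was marked in WT as well. At the 3 genes with WT H3K9me3 only, the nearest Uhrf1 KO domain lay 292 kb (Pax9), 810 kb (Pax3) and 72.8 kb (Pax4) away.

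Summits of Oct4, the points of highest read pile-up in each peak, lay within 20 kb of 7 Pax genes in WT mESC, against 30.1% of all genes, and of 1 in Uhrf1 KO, against 1.10%. Sox2 summits lay near 5 Pax genes in WT (all genes 18.8%) and 7 in Uhrf1 KO (57.7%), and Nanog summits near 2 in WT (7.51%) and 6 in Uhrf1 KO (27.4%). Pax1 and Pax4 had no summit of any factor in either genotype. Pax genes span a median of 55 kb, against 15.4 kb over all coding genes, which widens the stretch searched. Within 20 kb of the gene start, a window equal for all genes that was chosen after the data were seen, WT Oct4 was found at 4 Pax genes and 20.3% of all genes, and Nanog at 1 in WT and 3 in Uhrf1 KO, beside 4.47% and 17.7%.

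In all there were 16 Oct4, 8 Sox2 and 2 Nanog summits in WT and 1, 29 and 12 in Uhrf1 KO. Heights of the 16 WT Oct4 summits ran from 15 to 94 reads with a median of 30.5, and 7 of them reached the list's median of 37. The 29 Uhrf1 KO Sox2 summits had 9 to 64 reads, and 11 reached their list's median of 18. Of the WT Oct4 summits 10 lay in a WT H3K4me3 domain, and 9 lay in introns, 4 in exons and 3 upstream.

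**Figure D5:**
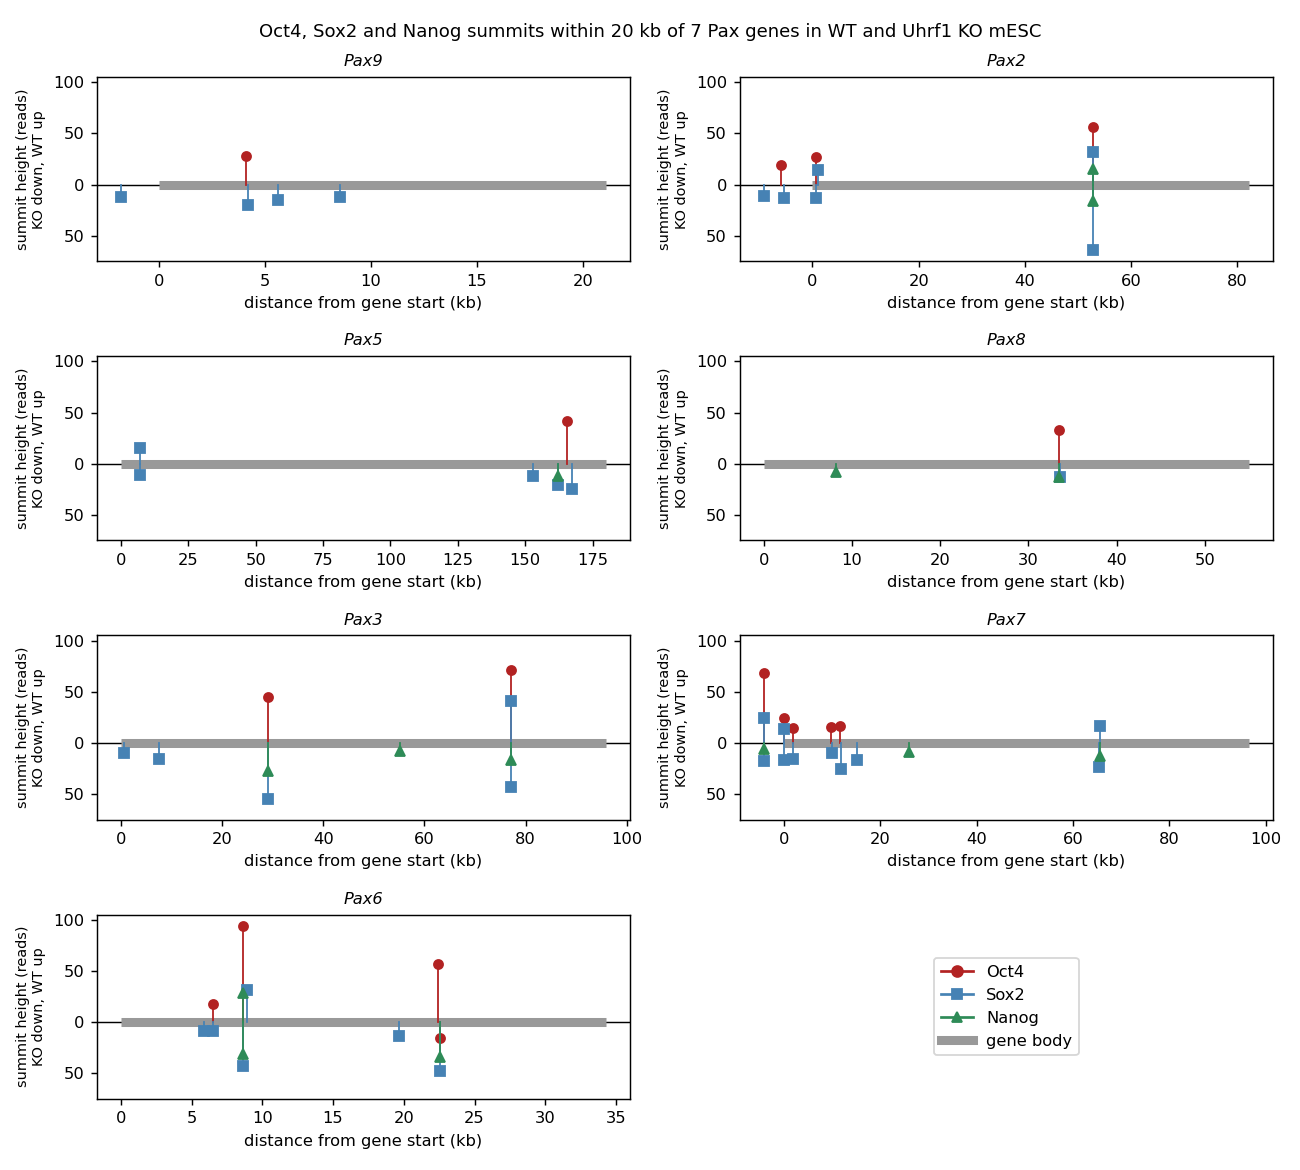
Summits of Oct4 (red circles), Sox2 (blue squares) and Nanog (green triangles) within 20 kb of 7 Pax genes, by distance from the gene start in kb and height in reads, with WT drawn upward and Uhrf1 KO downward and the gene body in grey, 1 library per factor and genotype. Red points lie upward except the 16-read summit in Pax6, and blue and green points are more numerous downward.

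A few sites are shown in sequence because they held the tallest WT Oct4, WT Sox2 and Uhrf1 KO Sox2 summits of the family. Each is the summit base with 50 bases of mm9 on either side, on the plus strand of the chromosome, in an intron. Capitals mark the letters ATGCAAA, part of the octamer bound by Oct4, and CATTGT, a core bound by Sox factors, each searched on both strands (as TTTGCAT and ACAATG); the motifs share no letters in these windows. They lie in Pax6 at chr2:105517640-105517740, in Pax3 at chr1:78116620-78116720 and in Pax2 at chr19:44883369-44883469.
Pax6: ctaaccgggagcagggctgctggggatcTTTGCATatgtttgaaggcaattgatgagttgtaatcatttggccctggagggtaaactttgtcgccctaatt
Pax3: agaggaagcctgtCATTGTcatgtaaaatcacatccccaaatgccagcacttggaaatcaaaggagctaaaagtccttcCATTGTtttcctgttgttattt
Pax2: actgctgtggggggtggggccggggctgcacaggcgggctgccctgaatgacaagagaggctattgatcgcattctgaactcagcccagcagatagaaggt
The Pax6 window held ATGCAAA on its minus strand, and the Pax3 window CATTGT at 2 places. The Pax2 window held neither set of letters. ATGCAAA was found in 3 of the 16 WT Oct4 windows near Pax genes, against 13% of all 12697 such windows on placed chromosomes, and CATTGT in 2 of 16, against 7.88%. In Sox2 windows CATTGT was found in 1 of 8 in WT and 2 of 29 in Uhrf1 KO, against 13.1% and 12.9% of all.

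The Pax6 site, 8.64 kb into the gene, had the tallest Oct4 summit of the family, 94 reads in WT, and no Oct4 summit in Uhrf1 KO within 13943 bp. Nanog was there in both genotypes, with 28 reads in WT and 31 in Uhrf1 KO and summits 16 bp apart. Sox2 had 43 reads there in Uhrf1 KO, and 31 reads in WT at a summit 313 bp away. Here Oct4 was the factor without a counterpart in Uhrf1 KO, while Nanog was of nearly equal height in both.

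Deeper in Pax6, 22.44 kb from the start and in an exon, WT had an Oct4 summit of 57 reads with no Sox2 or Nanog summit within 100 bp. In Uhrf1 KO the region held the only Oct4 summit near any Pax gene, 16 reads, 138 bp from the WT position, together with Sox2 at 48 reads and Nanog at 34, the tallest Nanog summit of the family. By the distance of 100 bp used for shared sites the WT and Uhrf1 KO Oct4 summits did not count as shared.

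In Pax3, 77.03 kb from the start, Oct4 had 71 reads in WT and none in Uhrf1 KO. Sox2 stayed, with 41 reads in WT and 43 in Uhrf1 KO at summits 19 bp apart, and Nanog, with no summit there in WT, had 17 reads in Uhrf1 KO. At 29.02 kb Oct4 had 45 reads in WT with no partner, whereas Uhrf1 KO had Sox2 at 55 reads and Nanog at 27.

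In Pax2, 52.84 kb from the start, the WT site held all 3 factors, with Oct4 at 56 reads, Sox2 at 32 and Nanog at 15. Uhrf1 KO kept Sox2 at 64 reads, the tallest Sox2 summit of the family, and Nanog at 16, and had no Oct4. Another pair of WT Oct4 summits at Pax2, of 19 and 27 reads, lay upstream at -5.83 kb and inside the gene at 0.72 kb.

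Pax7 had the most WT Oct4 summits, 5, of which the tallest, 68 reads, lay upstream at -4.17 kb beside Sox2 at 24 reads. In Uhrf1 KO that place had Sox2 at 18 reads and Nanog at 6. Pax5 had 1 Oct4 summit in WT, of 42 reads and 165.54 kb from its start, Pax8 had 1 of 33 reads, 33.51 kb from its start, and Pax9 had 1 of 28 reads, 4.11 kb from its start.

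A WT Oct4 site was called replaced when Uhrf1 KO had no Oct4 summit within 100 bp but had a Sox2 or Nanog summit there that no WT summit of the same factor matched within 100 bp. Of the 16 sites near Pax genes 0 were shared, 9 were replaced, 2 had lost Oct4 while Sox2 or Nanog stayed, and 5 had no summit of the 3 factors within 100 bp in Uhrf1 KO. For 3 of these 5 a Uhrf1 KO summit lay just past that distance: Sox2 at 111 bp, Nanog at 128 bp and Oct4 at 138 bp from the Pax6 site at 22.44 kb, and Sox2 at 132 bp and 170 bp from the Pax7 sites at 9.79 and 11.68 kb. Over all WT Oct4 sites these shares were 1.89%, 36.2%, 14% and 47.9%. Of the 9 replaced sites 5 had gained a Sox2 summit, 2 a Nanog summit and 2 a summit of each. The Uhrf1 KO lists hold more Sox2 summits (20755 against 5190) and more Nanog summits (10632 against 2390) than the WT lists, and the part of list size in these counts was not tested.

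Uhrf1 itself, mapped in WT mESC as 10 kb windows enriched over input, was on none of the 9 Pax genes, while 9.84% of all coding genes had a window on them. The nearest window lay 71 kb from Pax1, 103 kb from Pax9 and 117 kb from Pax6, and 942 kb from Pax4, the farthest. The median over the family was 296 kb, against 172 kb over all coding genes. The Pax2 gene lay 347 kb from a window. Its class differed between genotypes at every stage at the main setting, but in mESC alone with the stricter score.

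Of 23 genes known to be controlled by Pax proteins, such as Myod1, Mitf, Ret and Gcg, 13 carried H3K4me3 in WT mESC and 9 in Uhrf1 KO, beside 63.2% and 57.0% of all genes. Bivalent promoters among them numbered 11 and 1, beside 18.3% and 4.29%. H3K4me3 stood at 12 in WT and 9 in Uhrf1 KO at week 1 (all genes 62.1% and 57.0%). Week 2 gave 13 against 12 (65.7% and 64.5%), and week 3 gave 14 against 12 (66.2% and 65.8%). H3K27me3 stood at 17 of the 23 in WT mESC and 4 in Uhrf1 KO (all genes 34.9% and 7.57%), and at 14 in both at week 1 (20.5% and 21.1%). Oct4 summits lay near 9 in WT and 0 in Uhrf1 KO (30.1% and 1.10%), and Uhrf1 windows were on 2 (9.84%).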

How the data were processed

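Lists of 25 ChIP-seq libraries were analysed, grouped by genotype, stage and target as the labels give them, and the 8 inputs were not used. Per the labels the authors mapped reads to mm9 with Bowtie2 2.1.0. The authors called histone domains with RSEG against input and deposited a signal, which is the reads per bin of 350 to 1800 bp averaged over the domain, and a score that is larger for domains of more bins. They called factor summits with MACS and deposited as signal the reads at the summit, and the Uhrf1 windows came without a value. It is not stated whether the signals were scaled to depth, and depth per library was not used.

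Domains and summits were compared with the starts and bodies of 22367 protein-coding genes (GENCODE vM1 on NCBIM37, the mm9 assembly) with Python 3.11 and numpy 2.4.6, an overlap being at least 1 bp, and plots were drawn with matplotlib 3.10.9. Of 318036 regions 0 reached past the end of a chromosome. Promoter classes follow the distances of the study, but by overlap with deposited domains rather than by reads over input. With 1 library per group the comparison was of counts beside the share over all genes, with no test. The interval calls were tested on simulated data of 2000 genes, with 0 wrong calls. Tried alternatives were domains at or above the median score of their list, domains covering the start, any annotated transcript start, a minimum mean count for Uhrf1 KO H3K27me3, summits at or above the median height, other distances, and summits near the start, the last chosen after the data were seen.

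All 9 Pax genes were named. Genes controlled by Pax proteins were given by counts, and for factors the tallest summit per factor and genotype was named, and every summit where there were at most 5. Other summits and neighbours inside H3K27me3 domains were named after their values were seen. A further gene list examined is not reported here. The members and gene lists were chosen with earlier results of these data known.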

Additional observations from a re-analysis of the deposited data

Results flagged for a closer look

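At Pax8 the genotypes differed in opposite directions at successive stages: at week 1 the H3K4me3 domain of 2 kb was in WT and not in Uhrf1 KO, and at week 2 the domain of 1.4 kb was in Uhrf1 KO and not in WT. Both lie 0.72 to 2.72 kb inside the gene, and neither reached the median score of its list. At Pax4 the H3K27me3 domain of 34.2 kb was in WT mESC and not in Uhrf1 KO, while at week 2 the domain of 36 kb was in Uhrf1 KO and not in WT. Both Pax4 domains scored below the median of their list. Over all genes H3K27me3 stood at 34.9% in WT mESC and 7.57% in Uhrf1 KO, and at 29.8% and 24.1% at week 2. The Pax8 and Pax4 differences come from single libraries that went opposite ways at 2 stages, and they were not tested.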

How the results depend on the processing

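Of 121 alternatives over 37 counts, 96 left the count within 1.5 times its value. With only domains at or above the median score of their list, H3K4me3 stood at 1 Pax gene in Uhrf1 KO mESC, 4 in WT week 1, 2 in Uhrf1 KO week 2 and 4 in WT week 3, bivalent promoters numbered 4 in WT week 1, 2 in Uhrf1 KO week 2 and 4 in WT week 3, WT bivalent promoters not bivalent in Uhrf1 KO were 3 of 4 at week 1, 3 of 5 at week 2 and 0 of 4 at week 3, and H3K9me3 stood at 1 in Uhrf1 KO. Where the domain had to cover the start, Uhrf1 KO mESC had 1 with H3K4me3. With any transcript start, Uhrf1 KO week 1 had 2 with H3K4me3 and 2 bivalent. With the count minimum, Uhrf1 KO had 0 with H3K27me3 and 0 bivalent in mESC, and 4 and 3 at week 3, where 5 of 8 WT bivalent promoters were then not bivalent in Uhrf1 KO. With taller summits only, 0 genes had Oct4 in Uhrf1 KO and 1 had Nanog in WT. Within 20 kb of the start, chosen after the data were seen, 4 had Oct4 in WT and 0 in Uhrf1 KO (all genes 20.3% and 0.563%), and 1 had Nanog in WT and 3 in Uhrf1 KO (4.47% and 17.7%). The higher WT than Uhrf1 KO count of H3K4me3 in mESC and at week 1 was seen under every alternative for H3K4me3 domains. None of these set a minimum mean count for H3K4me3, so they do not show how the weak WT domains bear on it. The score, count and height settings leave fewer domains or summits, and the cause of these shifts was not tested further. Shares over all genes are given for the main setting and for summits within 20 kb of the start only. No paired analysis was possible because each group holds 1 library and the labels carry no replicate numbers.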
